A study of Mus musculus with 11 samples.

Results

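The expression of 10 core circadian clock genes was examined in mouse Leydig tumor cells (MLTCs) after knockdown of *Mamld1*. The members were the activators *Arntl* (also written *Bmal1*) and *Clock*, the repressors *Per1*, *Per2*, *Per3*, *Cry1* and *Cry2*, the nuclear receptors *Nr1d1* and *Nr1d2*, and the output gene *Dbp*. They were chosen by name, and every array probe whose RefSeq accession maps to one of them was taken, which gave 17 of the 41174 probes on the array. All 17 were well above background on all 11 arrays, and all were among the 24250 probes tested.

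MLTC-1 is a mouse Leydig tumor cell line, and Leydig cells are the testosterone-producing cells of the testis. Cells maintained in medium with serum were transfected at 20 nM with siRNA1 (4 arrays), with siRNA2 (3 arrays), both directed against *Mamld1*, or with the non-targeting RNA 4611G (4 control arrays), and total RNA was extracted 48 h later. According to the study's methods, RNA was harvested when steroids were measured, after human chorionic gonadotropin (hCG) had been added to the medium of every group, an addition that the sample labels do not name. Each array measured 1 Cy3-labeled sample made from 300 ng of RNA. Nothing says that the replicates of a group came from separate cultures, so p-values measure the spread between these samples, which may be technical. All arrays belong to 1 time point, and no synchronisation of the cells is stated, so levels were measured here, and neither phase nor amplitude of a rhythm.

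In the circadian clock, ARNTL and CLOCK bind E-box elements as a pair and switch on the *Per* and *Cry* genes, whose proteins return to the nucleus and repress that pair. A second loop runs through the nuclear receptors NR1D1 and NR1D2, which repress *Arntl*, and the ROR receptors, which activate it. DBP, itself under E-box control, carries the rhythm to output genes through D-box elements, and *Per1* and *Per2* are also induced directly by cAMP and by serum. The testis is known for weak rhythms as a whole organ, while Leydig cells express clock components.

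The levels below are given as the scaled signal of a probe in percent of the control level, which is the geometric mean over 4 arrays. The scaled signal is the background-subtracted intensity divided by the array's 75th percentile, which lay between 470 and 774 before scaling. Between 58.6% and 62.6% of spots were well above background, and no spot was saturated. The arrays lay on 3 slides of 3 or 4 arrays, each holding all 3 groups and scanned at a time of its own. A difference was called at an adjusted p of 0.05 or less in limma, with Benjamini-Hochberg adjustment over all 24250 probes, and differences are on the log2 scale. Where a gene has several probes, the brightest stands for the gene. *Mamld1* itself, a check of the labels, was read by a single dim probe (mean signal 22.3). Its level was 85.2% to 119% in control, 44.1% to 77.0% on the siRNA1 arrays and 45.3% to 68.6% on the siRNA2 arrays. Every siRNA array thus lay below every control array, with log2 differences of -0.93 (adjusted p = 0.00571) and -0.77 (adjusted p = 0.0309) in limma. The second of these missed the threshold when either control replicate 3 (adjusted p = 0.0792), control replicate 4 (0.0753), siRNA2 replicate 1 (0.119) or siRNA2 replicate 3 (0.0516) was left out, and its log2 difference without siRNA2 replicate 1 was -0.58. Under normexp background correction neither was called, at -0.14 (adjusted p = 0.0767) and -0.11 (adjusted p = 0.243), and the second also missed it without a filter on dim probes (adjusted p = 0.0762) and by the methods' unpaired test (adjusted p = 0.0898). By real-time PCR, a separate measure, the study reported a marked reduction of *Mamld1* mRNA with both siRNAs. All 7 Leydig cell markers examined were well above background on all 11 arrays. Of 7 measured markers of other testicular cells, *Sox9*, *Kdr* and *Ptprc* were well above background on 0 arrays, *Dazl* on 1, *Pecam1* on 3, *Ddx4* on 8 and *Amh* on 11. Their summed level, in percent of the array's 75th percentile, was 21.1 to 30.5 in control, 15.1 to 22.7 with siRNA1 and 19.6 to 30.7 with siRNA2. Without *Amh*, which made up most of it, the sum was 6.16 to 8.19 in control, 4.11 to 5.82 with siRNA1 and 5.06 to 9.65 with siRNA2, so that siRNA1 lay below control without overlap. The markers in this sum did not move alike. By brightest probe, the mean with siRNA1 was 31.5% of control for *Ddx4*, 160% for *Dazl* and 114% for *Pecam1*. For *Sox9*, *Ptprc* and *Kdr*, which were not well above background, it was 71.0%, 86.9% and 90.4%. The part of these markers in the results was not tested.

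By their brightest probes and without a block, few of the clock genes differed between groups, and none was called with both siRNAs. A dimmer *Cry1* probe was called higher with both in the same limma fit (0.45, adjusted p = 0.0373, and 0.52, adjusted p = 0.0399). With the slide as a block, *Dbp* was called lower with both (-0.43, adjusted p = 0.00381, and -0.99, adjusted p = 0.000101). The counts that follow are for brightest probes without a block. With siRNA1, 1 of the 10 genes passed the threshold (*Per2*, lower), while 27.0% of all tested probes did. With siRNA2, 2 of the 10 passed (*Dbp*, lower, and *Per1*, higher), while 18.4% of all tested probes did. Between siRNA1 and siRNA2 directly, 3 of the 10 passed (*Per2*, *Dbp* and *Arntl*), against 23.5% of all tested probes. In no comparison did the count of clock genes exceed the share of the whole array by as much as 1 gene of 10. When at least a 2-fold difference was also required, 0 genes remained for either siRNA against control, against 2.99% and 2.25% of all tested probes, and 1 gene (*Per2*) remained between the siRNAs, against 3.36%. At an unadjusted p below the same threshold, limma gave 4, 2 and 5 of the 10 genes in the 3 comparisons. The share of all tested probes at that level was not computed, and it is at least the 27.0%, 18.4% and 23.5% above. The median log2 difference over the 10 genes was -0.21 with siRNA1 and -0.14 with siRNA2, beside -0.05 and -0.01 over all tested probes. Both comparisons with control use the same 4 control arrays.

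**Figure D1:**
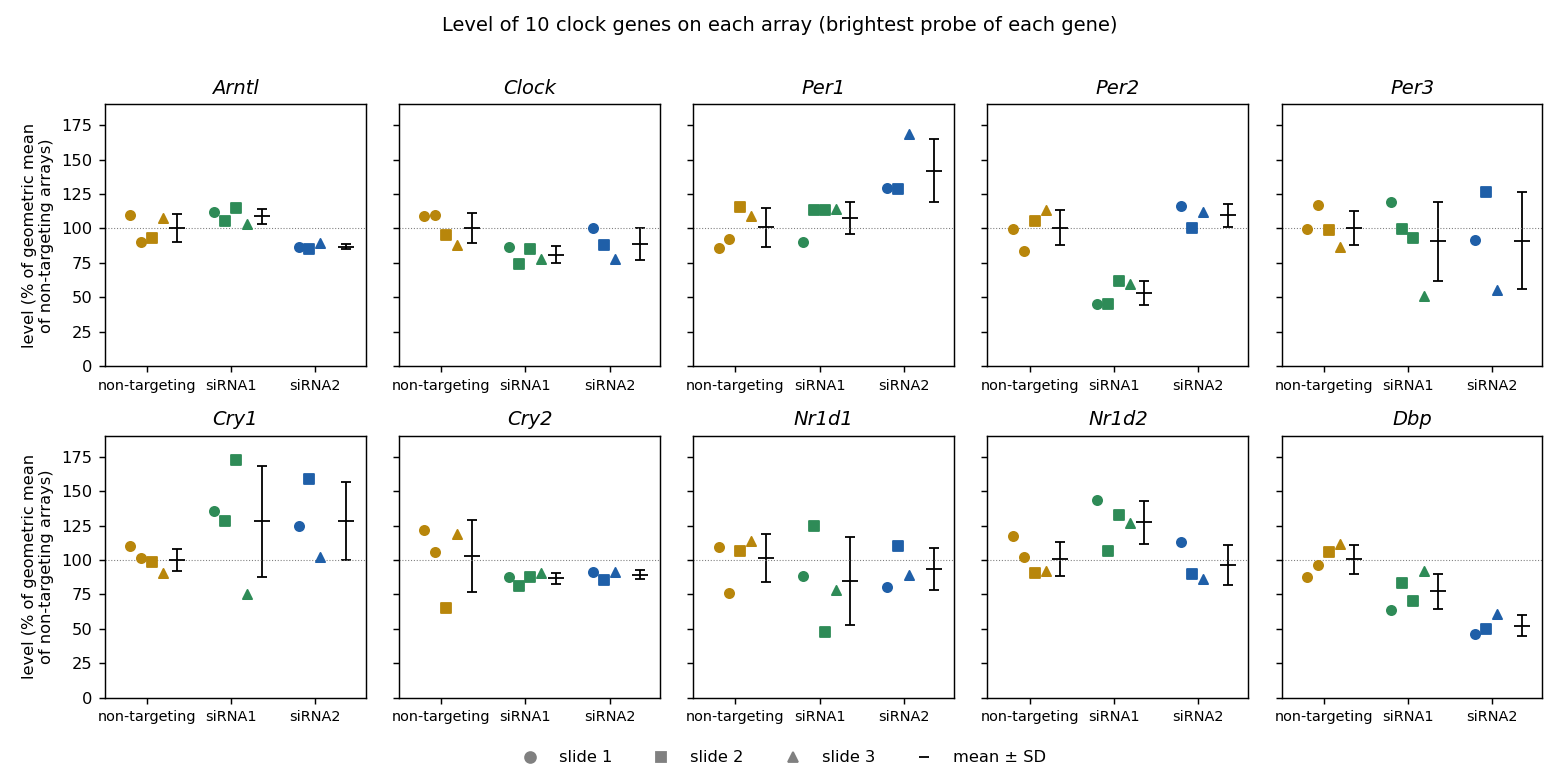
Level of the brightest probe of each clock gene on each array, in percent of the geometric mean of the 4 non-targeting arrays, by group, with marker shapes for the 3 slides and black bars for the mean ± SD. *Per2* on the 4 siRNA1 arrays lay between 45.5% and 61.9%, below all other arrays, and *Dbp* on the 3 siRNA2 arrays lay between 46.2% and 61.2%, also below all other arrays.

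Among the activators, neither *Arntl* nor *Clock* was called against control in the fit of all arrays without a block. *Arntl*, the obligate partner of CLOCK, was at 110%, 90.5%, 93.3% and 108% in control, at 112%, 106%, 115% and 103% with siRNA1, and at 86.4%, 85.1% and 89.2% with siRNA2. The siRNA2 arrays lay below all other arrays and close together, whereas siRNA1 and control overlapped. Neither siRNA differed from control in limma (log2 difference 0.12 with siRNA1, adjusted p = 0.33, and -0.20 with siRNA2, adjusted p = 0.165), but siRNA1 exceeded siRNA2 by 0.32 (95% interval 0.12 to 0.53, adjusted p = 0.0257). That call was lost when siRNA1 replicate 1 or 3 or any of the siRNA2 replicates was left out, with log2 differences of 0.30 to 0.34 and adjusted p of 0.056 to 0.0883, as well as under median scaling (adjusted p = 0.0536) and without a filter on dim probes (0.0613).

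*Clock*, which encodes the histone-acetylating partner of ARNTL, has 3 probes. On the brightest one, control arrays were at 109%, 110%, 95.3% and 87.8%, siRNA1 arrays at 86.8%, 73.9%, 85.3% and 78.1%, and siRNA2 arrays at 101%, 88.3% and 77.8%. All siRNA1 arrays lay below all control arrays, by a narrow margin, and siRNA2 overlapped both groups. The log2 difference with siRNA1 was -0.31 (95% interval -0.55 to -0.07), which missed the threshold in limma (adjusted p = 0.0578), and the differences within slides 1, 2 and 3 were -0.33, -0.26 and -0.17. With the slide as a block it passed, at -0.26 (adjusted p = 0.0198), and it also passed without control replicate 4 (-0.37, adjusted p = 0.0398), siRNA2 replicate 1 (adjusted p = 0.0473) or siRNA2 replicate 3 (adjusted p = 0.0488). The dimmer probes gave -0.27 and -0.12 with siRNA1, with adjusted p of 0.278 and 0.564. With siRNA2, the 3 probes gave -0.18, -0.20 and -0.31, none past the threshold (adjusted p = 0.361, 0.547 and 0.2 in limma).

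The *Per* genes, which encode the rhythmic subunits of the repressor complex, went separate ways. *Per1* was at 85.6%, 92.2%, 116% and 109% in control, at 90.3%, 113%, 113% and 114% with siRNA1, and at 129%, 128% and 169% with siRNA2. The siRNA2 arrays were above all others, replicate 3 most of all, while siRNA1 overlapped control. *Per1* rose with siRNA2 by 0.49 (95% interval 0.18 to 0.81, 1.41-fold, adjusted p = 0.0347 in limma). With siRNA1 its log2 difference was 0.10 (adjusted p = 0.623). The siRNA2 difference within slides 1, 2 and 3 was 0.54, 0.15 and 0.63, and the call was lost without control replicate 1 (0.42, adjusted p = 0.0881), control replicate 2 (0.46, 0.0815), siRNA2 replicate 2 (0.56, 0.0545) or siRNA2 replicate 3 (0.36, 0.137). It was also lost under median scaling (adjusted p = 0.0621), without a filter on dim probes (0.0834) and by the methods' unpaired test (0.128). Directly, siRNA1 was lower than siRNA2 by 0.39, which missed the threshold (adjusted p = 0.0717) but passed with the slide as a block (-0.41, adjusted p = 0.0108).

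*Per2* was the 1 clock gene called with siRNA1. Its brightest probe was at 99.4%, 84.0%, 106% and 113% in control, at 45.5%, 45.5%, 61.9% and 59.5% with siRNA1, and at 116%, 100.2% and 112% with siRNA2. The siRNA1 arrays stood well below all other arrays, and siRNA2 overlapped control. *Per2* fell with siRNA1 by 0.93 on the log2 scale (95% interval -1.22 to -0.64, 0.525-fold, adjusted p = 0.000435 in limma). With siRNA2 the log2 difference was 0.13 (95% interval -0.19 to 0.44, adjusted p = 0.624), and the direct difference of siRNA1 from siRNA2 was -1.06 (95% interval -1.37 to -0.74, adjusted p = 0.000344). The decrease with siRNA1 was nearly the same on each slide, at -1.01, -0.99 and -0.93, and it kept an adjusted p of 0.05 or less in all 21 alternatives that refitted it, with log2 differences of -1.01 to -0.51, the smallest of them under normexp background correction.

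The second *Per2* probe, which is dimmer (mean signal 53.4 against 147) and carries the same RefSeq accession, did not show this decrease. It was at 122%, 93.2%, 106% and 82.9% in control, at 128%, 102%, 70.1% and 68.5% with siRNA1, and at 90.6%, 101% and 118% with siRNA2. The 3 groups overlapped, and the siRNA1 arrays were themselves split, replicates 1 and 2 being higher than replicates 3 and 4. The log2 difference with siRNA1 was -0.17 (95% interval -0.62 to 0.28, adjusted p = 0.587 in limma), an interval that does not reach the estimate of the brighter probe. The mean of both probes was lower by 0.55 with siRNA1 (adjusted p = 0.00151). The germ cell marker *Ddx4*, a dim probe, was also lower with siRNA1 (21.6% to 43.5%), and with siRNA2 it was at 75.7% to 115%. It was well above background on 4 of 4 control, 1 of 4 siRNA1 and 3 of 3 siRNA2 arrays, and its part in the *Per2* difference was not tested. The other germ cell marker, *Dazl*, had 2 probes, well above background on 1 and 0 arrays, and they did not move alike. With siRNA1 they were at 115% to 231% and 65.1% to 73.7%, and in control at 75.6% to 147% and 67.4% to 156%.

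*Per3*, the third member of the family, has 1 probe, and it was dim (mean signal 23.4). Its level spanned 86.8% to 117% in control, 51.2% to 119% on the siRNA1 arrays and 55.5% to 126% on the siRNA2 arrays. The groups overlapped, and the lowest array of each group was the one on slide 3. The log2 differences of -0.21 with each siRNA had 95% intervals of -0.82 to 0.41 and -0.88 to 0.45, so a change of this size was not detectable here (adjusted p = 0.636 and 0.715 in limma).

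The *Cry* genes encode the proteins that repress ARNTL and CLOCK most directly, and each was read by a pair of probes that differed in outcome. The brighter *Cry1* probe was at 110%, 102%, 98.4% and 90.8% in control, at 136%, 128%, 172% and 75.4% with siRNA1, and at 125%, 158% and 102% with siRNA2. With siRNA1 the arrays ranged widely, and replicate 4 alone lay below control. The log2 differences were 0.29 (adjusted p = 0.364) and 0.34 (adjusted p = 0.396) in limma, and without siRNA1 replicate 4 the first was 0.53 (adjusted p = 0.0348). The dimmer *Cry1* probe was at 95.4%, 120%, 103% and 85.5% in control, at 149%, 123%, 144% and 134% with siRNA1, and at 164%, 161% and 111% with siRNA2. On this probe all siRNA1 arrays were above control, replicate 2 only just, and siRNA2 overlapped control through replicate 3. The dimmer probe was higher by 0.45 with siRNA1 (adjusted p = 0.0373) and by 0.52 with siRNA2 (adjusted p = 0.0399) in limma. The call with siRNA1 ended when control replicate 1, 3 or 4 or siRNA1 replicate 1, 3 or 4 was left out (adjusted p of 0.0643 to 0.103). That with siRNA2 ended without control replicate 1, 3 or 4, siRNA1 replicate 3 or 4, or siRNA2 replicate 1 or 2 (0.0542 to 0.155). Normexp background correction brought the differences to 0.11 (adjusted p = 0.133) and 0.13 (adjusted p = 0.144), and neither was called without a filter on dim probes (0.0778 and 0.0943).

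*Cry2* likewise had 1 bright and 1 dim probe. The brighter was at 122%, 106%, 65.4% and 119% in control, at 87.4%, 81.1%, 87.8% and 90.5% with siRNA1, and at 91.3%, 85.7% and 91.2% with siRNA2. All 7 siRNA arrays lay in a narrow band below 3 of the control arrays, and control replicate 3 lay below all of them. The log2 differences were -0.21 and -0.16 (adjusted p = 0.405 and 0.629 in limma), and without control replicate 3 they became -0.41 (adjusted p = 0.00751) and -0.37 (adjusted p = 0.0244). Within slide 2, which holds that array, both siRNAs were higher than control (0.37 and 0.39), whereas on slides 1 and 3 they were lower (-0.38 and -0.39 with siRNA1, -0.31 and -0.38 with siRNA2). The dimmer probe was at 87.1%, 96.1%, 101% and 118% in control and at 60.4%, 75.4%, 57.7% and 57.1% with siRNA1, without overlap. Its log2 difference was -0.68 (95% interval -1.18 to -0.19, adjusted p = 0.0425 in limma), a call that ended when any control replicate or siRNA1 replicate 1, 3 or 4 was left out (adjusted p of 0.0515 to 0.111), without a filter on dim probes (0.0877) and under normexp background correction (-0.20, 0.0565). With siRNA2 the dimmer probe was at 44.2%, 91.4% and 98.1%, replicate 1 standing apart from the other two, and its log2 difference was -0.45 (adjusted p = 0.252). The mean of both probes was called with siRNA1, at -0.45 (adjusted p = 0.0357).

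**Figure D2:**
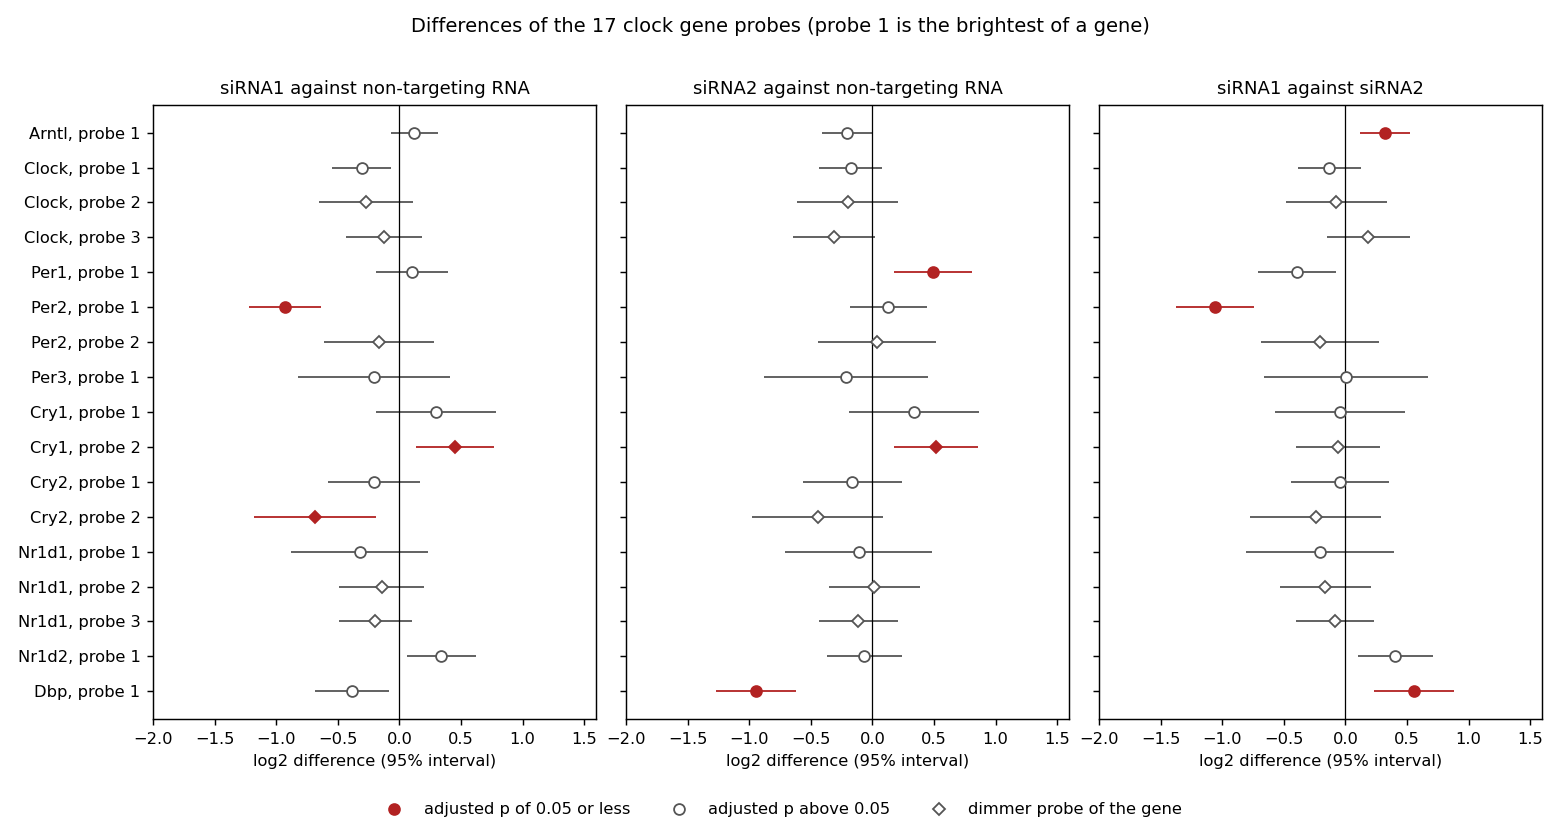
Log2 differences with 95% intervals for the 17 clock gene probes in the 3 comparisons, with circles for the brightest probe of a gene, diamonds for dimmer probes, and red for an adjusted p of 0.05 or less in limma. In each comparison 3 of the 17 probes passed, and the pairs of *Per2*, *Cry1* and *Cry2* probes differed in whether they did.

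The nuclear receptors of the stabilising loop gave no call against control. *Nr1d1*, which encodes the heme-binding repressor REV-ERB alpha, was read by 3 dim probes with mean signals of 35.8 to 44.4. Its first probe spanned 75.7% to 114% in control, 47.6% to 125% on the siRNA1 arrays and 80.4% to 110% on the siRNA2 arrays, so that the groups overlapped. Over the 3 probes the log2 differences lay between -0.32 and -0.14 with siRNA1 and between -0.11 and 0.02 with siRNA2, with adjusted p from 0.316 to 0.966 in limma. *Nr1d2*, which encodes the related REV-ERB beta, was at 117%, 102%, 90.2% and 92.3% in control, at 144%, 106%, 133% and 127% with siRNA1, and at 113%, 89.9% and 86.1% with siRNA2. The siRNA1 arrays were the higher ones, with replicate 2 inside the control range, and siRNA2 overlapped control through replicate 1, replicates 2 and 3 lying just below it. The log2 difference with siRNA1 was 0.34 (95% interval 0.06 to 0.62), which missed the threshold (adjusted p = 0.0729 in limma). It was alike within slides 1, 2 and 3 (0.39, 0.40 and 0.46) and passed with the slide as a block (0.41, adjusted p = 0.00706), without control replicate 1 (0.42, adjusted p = 0.0421) or without siRNA1 replicate 2 (0.42, adjusted p = 0.0344), and under quantile normalization (adjusted p = 0.0429) and normexp background correction (0.0359). Against siRNA2, siRNA1 was higher by 0.40 (adjusted p = 0.0557), and by 0.43 with the slide as a block (adjusted p = 0.00809). That contrast passed as well without control replicate 1 (adjusted p = 0.0478), siRNA1 replicate 2 (0.49, adjusted p = 0.028) or siRNA2 replicate 1 (0.52, adjusted p = 0.0263), and under quantile normalization (0.0485) and normexp background correction (0.0303).

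*Dbp*, which encodes the D-box-binding output factor of the clock, was the 1 member called lower with siRNA2. It was at 87.8%, 96.6%, 106% and 112% in control, at 63.8%, 83.3%, 70.2% and 91.7% with siRNA1, and at 46.2%, 49.8% and 61.2% with siRNA2. The siRNA2 arrays lay below all other arrays, and the siRNA1 arrays lay between, with replicate 4 inside the control range. *Dbp* fell with siRNA2 by 0.94 on the log2 scale (95% interval -1.27 to -0.62, 0.52-fold, adjusted p = 0.00114 in limma), and the differences within slides 1, 2 and 3 were -0.996, -1.08 and -0.87. The adjusted p was 0.05 or less in all 21 alternatives that refitted it, with log2 differences of -1.06 to -0.86. With siRNA1 the log2 difference was -0.39 (95% interval -0.69 to -0.09), which missed the threshold (adjusted p = 0.0561) and passed with the slide as a block (-0.43, adjusted p = 0.00381). It also passed without control replicate 1 (-0.45, adjusted p = 0.0481), siRNA1 replicate 4 (-0.47, adjusted p = 0.0296) or siRNA2 replicate 3 (adjusted p = 0.0474), and under normexp background correction (adjusted p = 0.0284). The siRNA1 level exceeded the siRNA2 level by 0.56 (95% interval 0.23 to 0.88, adjusted p = 0.0179), a call lost without siRNA2 replicate 1 (0.47, adjusted p = 0.0666) or siRNA2 replicate 2 (0.53, adjusted p = 0.0661), or by the methods' unpaired test (adjusted p = 0.0969).

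**Figure D3:**
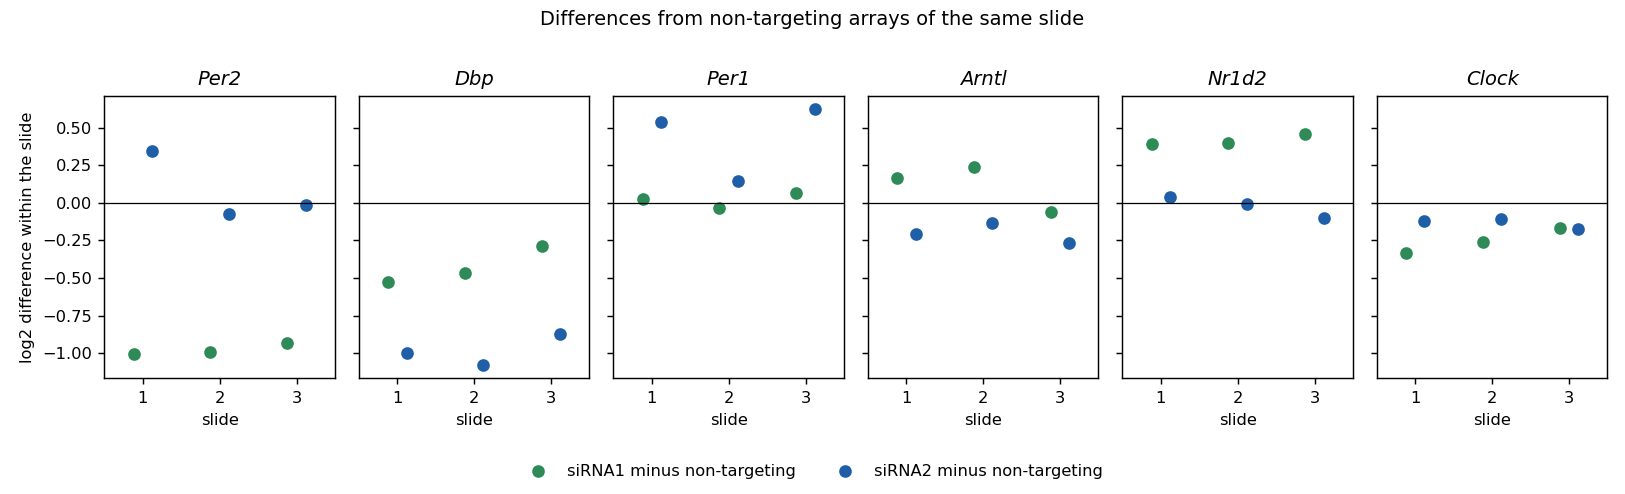
Log2 differences of siRNA1 and siRNA2 arrays from the control arrays of the same slide, for the 6 clock genes called in a comparison with or without the slide as a block, by their brightest probe, 1 panel per gene and the slide on the horizontal axis. *Per2* with siRNA1 stayed between -1.01 and -0.93 and *Dbp* with siRNA2 between -1.08 and -0.87 on the 3 slides, while *Per1* with siRNA2 ranged from 0.15 to 0.63.

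Slide was examined because each of the 3 slides held arrays of all 3 groups. Of the 10 clock genes, 0 differed between slides at the adjusted threshold in limma's F-test, while 7.89% of all tested probes did. At an unadjusted p below 0.05 it was 6 of 10, beside 31.4% of all tested probes. The largest slide differences were those of *Per3* (slide 3 below slide 1 by -0.73, adjusted p = 0.0553), *Cry1* (-0.45, adjusted p = 0.0841) and *Dbp* (slide 3 above slide 1 by 0.39, adjusted p = 0.0543). Of all 17 probes, 2 passed, a dimmer *Clock* probe (-0.51 on slide 3, adjusted p = 0.0447) and a dimmer *Nr1d1* probe (0.47, adjusted p = 0.0443).

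The clock acts on genes through short DNA elements, and *Per1* and *Dbp* differed from control in opposite directions with siRNA2. Whether such elements have a part in these differences was not tested. Shown are the upstream sequences of *Dbp* and of *Per1* and *Cry1*, the only members with an E-box match below. They are the 250 bases before a RefSeq start site on GRCm38.p6, and such sequences were found for 9 of the 10 members, with 13 start sites, and not for *Per2*. The motifs searched, on both strands, were the E-box CACGTG, the D-box form TTATGTAA, the cAMP response element TGACGTCA and the ROR and REV-ERB half-site AGGTCA. Capitals mark matches to any of them, and no match overlapped another. *Per1* lies at chr11:69098699-69098948 on the plus strand, *Cry1* at chr10:85185055-85185304 on the minus strand and *Dbp* at chr7:45704997-45705246 on the plus strand.
Per1: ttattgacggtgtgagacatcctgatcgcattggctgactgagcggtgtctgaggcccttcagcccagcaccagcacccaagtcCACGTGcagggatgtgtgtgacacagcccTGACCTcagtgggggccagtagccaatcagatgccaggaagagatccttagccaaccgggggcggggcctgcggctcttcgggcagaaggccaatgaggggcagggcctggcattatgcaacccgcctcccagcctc
Cry1: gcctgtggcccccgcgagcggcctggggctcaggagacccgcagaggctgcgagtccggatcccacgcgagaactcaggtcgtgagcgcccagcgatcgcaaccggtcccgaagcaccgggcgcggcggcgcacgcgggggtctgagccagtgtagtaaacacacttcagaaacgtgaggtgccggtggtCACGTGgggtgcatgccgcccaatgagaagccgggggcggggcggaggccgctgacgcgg
Dbp: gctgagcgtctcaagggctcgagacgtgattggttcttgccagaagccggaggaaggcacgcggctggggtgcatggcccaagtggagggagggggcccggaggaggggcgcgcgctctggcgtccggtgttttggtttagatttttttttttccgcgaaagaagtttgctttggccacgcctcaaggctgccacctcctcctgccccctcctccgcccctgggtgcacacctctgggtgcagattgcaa

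In the *Per1* sequence, that of its first start site, the E-box begins 166 bases before the start site and the half-site, on the opposite strand, 137 bases before it. The window before the second *Per1* start site holds none of the 4 motifs. The *Cry1* sequence holds an E-box that begins 60 bases before the start, and the *Dbp* sequence holds none of the 4 motifs in this window. Bases outside the windows, such as those within the genes, were not searched. The other matches were 2 D-box forms before *Per3*, which begin 205 and 158 bases upstream, and half-sites before *Nr1d2* (77 bases) and before 1 of the 3 *Clock* start sites (119 bases). Of all 32851 start sites with such a sequence, 6.02% hold the E-box, 0.819% the D-box form, 1.55% the cAMP response element and 14.0% the half-site. These matches describe the letters in the windows, and binding was not measured.

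Genes that work with the core clock genes were taken from a list of partners. Of 20 listed partners, 18 had a tested probe, and with siRNA1 5 rose and 3 fell, while 10 did not pass. With siRNA2, 4 rose and 1 fell. Between the siRNAs, 3 were higher and 3 lower with siRNA1. The shares of all tested probes were the 27.0%, 18.4% and 23.5% given above. *Arntl2* and *Npas2* were tested because siRNA1, their highest group, passed the filter on dim probes, and over the 16 partners well above background on all arrays the counts were 4 and 3, 4 and 1, and 1 and 3. The share called among all probes well above background on all arrays was not computed, so these counts have no like share beside them. With the slide as a block, 8 of the 18 rose and 3 fell with siRNA1, 5 rose and 2 fell with siRNA2, and 5 were higher and 3 lower between the siRNAs. The share of all tested probes called in the blocked fit was not computed. The shares above belong to the fit without the block and are no measure for these counts. In the fit without the block, 8 were called in either direction with siRNA1 and 5 with siRNA2. The first count was 5 without control replicate 2 or siRNA1 replicate 1, and 4 without control replicate 3 or siRNA1 replicate 3. The second was 3 without control replicate 1 or siRNA2 replicate 2. The blocked fit was not repeated without single arrays. The median log2 differences were 0.18 with siRNA1 and 0.02 with siRNA2, beside -0.05 and -0.01 over all tested probes. *Rorb* and *Fbxl21* had no tested probe.

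A few partners passed with both siRNAs, whose comparisons share the control arrays. *Btrc*, a ubiquitin ligase adaptor that targets PER proteins for degradation, was at 196% ± 7.76 (SD, n = 4) with siRNA1 and at 172% ± 10.8 (n = 3) with siRNA2, against 101% ± 14.3 (n = 4) in control. Its log2 differences were 0.97 (adjusted p = 6.66e-05) and 0.78 (adjusted p = 0.000697) in limma. *Rora*, the receptor that activates *Arntl*, rose by 0.40 (adjusted p = 0.00712) and 0.44 (adjusted p = 0.00796), and its second probe rose as well (0.36 and 0.42, adjusted p = 0.0102 and 0.00865). *Nfil3*, the D-box repressor that opposes DBP, fell by 0.29 (adjusted p = 0.0342) and by 0.35 (adjusted p = 0.0304), and its dimmer probe fell with siRNA1 by 0.39 (adjusted p = 0.0249) and gave -0.31 with siRNA2 (adjusted p = 0.105).

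Other partners passed with 1 siRNA when the slide was not a block. With siRNA1, *Bhlhe41*, an E-box repressor, rose by 0.95 (adjusted p = 0.00128), and its log2 difference with siRNA2 was 0.44 (adjusted p = 0.101). *Ciart*, a repressor of the CLOCK and ARNTL pair, fell with siRNA1 by 0.67 (adjusted p = 0.000414) and was lower than with siRNA2 by 0.48 (adjusted p = 0.00596). *Wee1*, a clock-controlled kinase of the cell cycle, rose with siRNA1 by 0.57 (adjusted p = 0.0417), and siRNA1 exceeded siRNA2 by 1.05 (adjusted p = 0.00316). With siRNA2 its log2 difference was -0.48 (adjusted p = 0.135), which passed with the slide as a block (-0.42, adjusted p = 0.0386). *Csnk1d*, which encodes a kinase that phosphorylates PER proteins, rose with siRNA2 by 0.33 on its brightest probe (adjusted p = 0.0169), while its other probes gave 0.43 (adjusted p = 0.00566), -0.02 and -0.01. With siRNA1 the brightest probe gave 0.20 (adjusted p = 0.0749), and 0.21 with the slide as a block (adjusted p = 0.0391). The blocked fit also called, with siRNA1, *Fbxw11* (0.27, adjusted p = 0.0282, against 0.159 without the block) and *Nampt* (0.33, adjusted p = 0.0276, against 0.304).

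*Timeless*, a replication and clock-associated gene, fell with siRNA1 by 0.34 (adjusted p = 0.0409) and rose with siRNA2 by 0.46 (adjusted p = 0.0196), so that siRNA1 lay below siRNA2 by 0.79 (adjusted p = 0.000618). Its dimmer probe gave -0.49 and 0.51 (adjusted p = 0.101 and 0.142), and the first passed with the slide as a block (-0.59, adjusted p = 0.0276). *Hlf*, a D-box activator related to DBP, passed in the direct comparison, where siRNA1 was lower than siRNA2 by 0.71 (adjusted p = 0.00484). Against control it gave -0.30 with siRNA1 (adjusted p = 0.13) and 0.41 with siRNA2 (adjusted p = 0.0786), and the second passed with the slide as a block (0.39, adjusted p = 0.033).

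For *Arntl2* and *Npas2* a group was not well above background on any array, and the fold is a bound, given as a description because their filter passed through the group where they are high. The brighter probe of *Arntl2*, the paralog of *Arntl*, was well above background on 4 of 4 siRNA1 arrays and on 0 of the control and siRNA2 arrays. On this probe the level was at least 1.21-fold higher with siRNA1 than in either. A second *Arntl2* probe, well above background on 0 arrays, did not show a rise. Its mean was 100.5% in control, 100.4% with siRNA1 and 98.2% with siRNA2. *Npas2*, the paralog of *Clock*, was above background on 1 control, 4 siRNA1 and 0 siRNA2 arrays and was at least 1.55-fold higher with siRNA1 than with siRNA2.

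**Figure D4:**
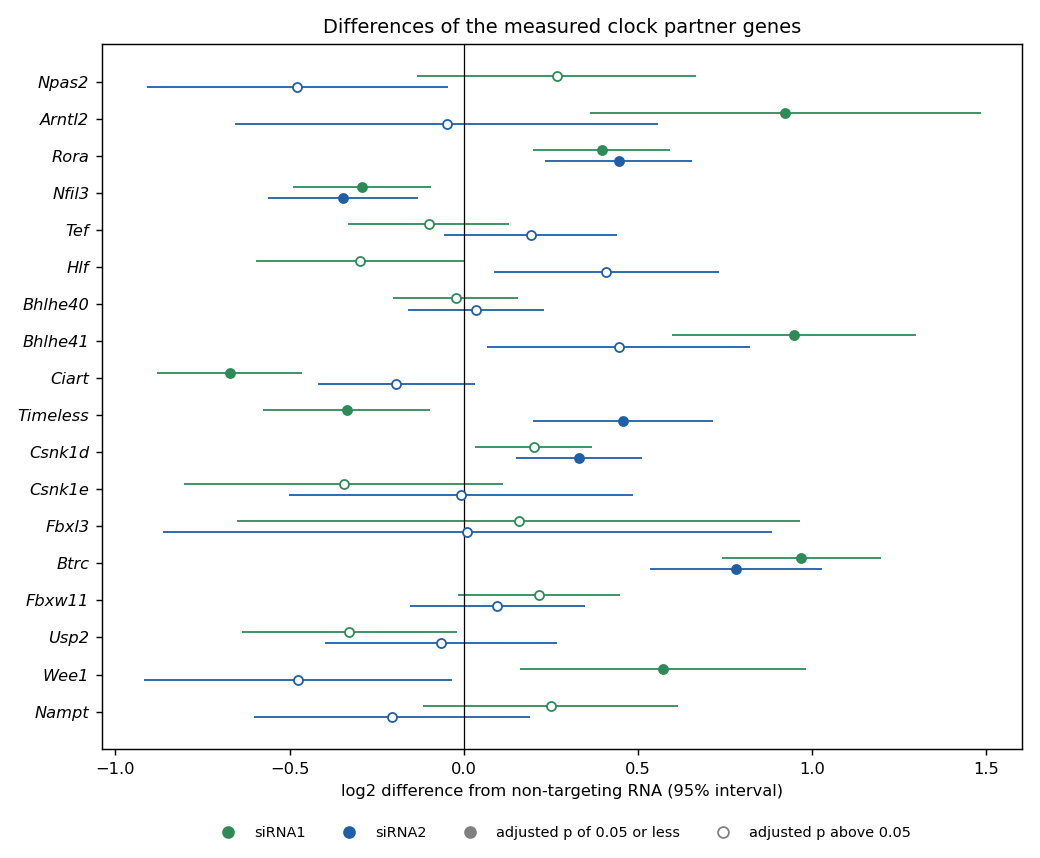
Log2 differences from control with 95% intervals for the 18 measured clock partner genes with siRNA1 (green) and siRNA2 (blue), filled where the adjusted p in limma was 0.05 or less. *Btrc*, *Rora* and *Nfil3* were filled for both siRNAs, and *Timeless* was filled on opposite sides of 0. The points of *Arntl2* and *Npas2* include groups that were not well above background, and both were tested through siRNA1, where they are highest.

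Immediate early genes were read because *Per1* and *Per2* share induction by cAMP and serum with them. Of the 10, 1 rose and 3 fell with siRNA1, and 1 rose and 4 fell with siRNA2, while 27.0% and 18.4% of all tested probes passed. *Nr4a2* was tested because control, its highest group, passed the filter on dim probes, and over the other 9 genes 1 rose and 2 fell with siRNA1, and 1 rose and 3 fell with siRNA2. For these 9 genes too, the share among all probes well above background on all arrays was not computed. *Dusp1*, a phosphatase of MAP kinases, rose by 0.46 (adjusted p = 0.00711) and 0.53 (adjusted p = 0.00724). The transcription factor genes *Fosb* (-0.89 and -0.37, adjusted p = 5.6e-05 and 0.026) and *Egr1* (-0.72 and -0.93, adjusted p = 0.0168 and 0.00931) fell with both siRNAs, and *Fos* fell with siRNA2 by 0.49 (adjusted p = 0.0165). *Nr4a2* was well above background on 4 of 4 control, 3 of 4 siRNA1 and 0 of 3 siRNA2 arrays, with a log2 difference of -1.09 with siRNA1, and control was at least 1.83-fold above siRNA2. *Crem*, a cAMP-induced repressor gene named here after its values were seen, has 5 probes. Its brightest gave -0.34 with siRNA2 (adjusted p = 0.0599), which passed with the slide as a block (-0.33, adjusted p = 0.0307), and 2 dimmer probes were called lower with siRNA2 (-0.28 and -0.33, adjusted p = 0.044 and 0.0394) and higher with siRNA1 than with siRNA2 (0.30 and 0.33, adjusted p = 0.0288 and 0.0301). The remaining *Crem* probes each gave -0.26 with siRNA2 and were not called (adjusted p = 0.226 and 0.135 in limma), nor were they with the slide as a block (0.229 and 0.142). Between the siRNAs, *Fosb* was lower with siRNA1 by 0.52 (adjusted p = 0.00329) and *Sik1*, a cAMP-induced kinase gene, was higher by 0.31 (adjusted p = 0.0169). Their part in the *Per1* and *Per2* differences was not tested.

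The genes whose levels over the 11 arrays were most like those of a called member were listed as a description, from 11784 other genes by Pearson's r of the scaled log2 signals. For *Per2* they were *Tmem223* (r = 0.98), *Jade2* (0.98) and *Entpd1* (0.98), for *Dbp* *Crcp* (0.98), *Amacr* (0.98) and *Mpv17* (0.98), and for *Per1* *Cc2d1a* (0.96), *Tln1* (0.96) and *Atrip* (0.96). The 11 points share their groups and slides, so a gene that differs between the same groups scores high.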

How the data were processed

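Total RNA of 11 MLTC-1 samples was measured on one-color Agilent mouse arrays. The deposited scanner files hold, per the file headers, spot intensities made with Feature Extraction (version 9.5.1.1), which subtracted background within each array and did not normalize between arrays, together with deposited flags (0 or 1) for control, outlier, saturated and well-above-background spots. A deposited GeneSpring table of group averages for probes that passed the authors' tests holds no clock gene and was not used. Here the processed signal was divided by the array's 75th percentile over non-control spots and converted to log2, outlier-marked spots were left out, and spots of a probe were averaged. Probes were named by RefSeq accession (24375 of 41174 matched, GRCm38.p6 gene table). A probe was tested if all arrays of some group had it well above background (24250 probes). limma (version 3.58.1, R version 4.3.3; lmFit, contrasts.fit, eBayes) fitted all 11 arrays in 3 groups, with Benjamini-Hochberg adjustment, and the scripts were tested on simulated data. Intervals are 95% intervals of single differences. A fold bound sets the brighter group's mean against, per array of the dimmer group, the higher of the lowest well-above-background signal and the probe's own.

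Named genes were all members by all probes, listed partner and immediate early genes past the threshold, *Mamld1*, and the 3 genes most like each member called against control. The members and lists were chosen with earlier results of these data known. 1 partner gene first listed is not reported here and is in none of the counts. Alternatives were quantile normalization, median scaling, normexp background correction (offset 50), other filters, outlier spots kept, slide or replicate as a block, the methods' unpaired test, a 2-fold requirement, the mean of all probes of a gene, and omission of each array. Slides were told apart by the barcode in the file headers. The number of arrays limits the precision.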

Additional observations from a re-analysis of the deposited data

Results flagged for a closer look

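Between the siRNAs, 3 clock genes differed in their response, by limma's test of siRNA1 against siRNA2: *Per2* (log2 difference -1.06), *Dbp* (0.56) and *Arntl* (0.32). Within 20 sets of 4 arrays (10 genes, control and siRNA1), Dixon's ratio of the end gap to the range, at its 95% critical value, singled out 2 arrays: siRNA1 replicate 1 for *Per1* (low, 0.96) and control replicate 2 for *Nr1d1* (low, 0.83). Chance alone marks about 1 set in 20. The siRNA2 group, with 3 arrays, was not screened.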

How the results depend on the processing

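The counts of clock genes past the threshold (1 with siRNA1, 2 with siRNA2, 3 between the siRNAs, 0 between slides) moved with several choices. With siRNA1 the count was 2 under quantile normalization and with the mean of all probes, 3 under normexp correction, 4 with the slide as a block, and 0 with the 2-fold requirement. With siRNA2 it was 1 under median scaling, without a filter and by the methods' unpaired test, and 0 with the 2-fold requirement. Between the siRNAs it was 5 with the slide as a block and 1 with the 2-fold requirement. Between slides it was 1 under median scaling and normexp correction and 2 with the filter on all arrays. Leaving out 1 array gave 1 to 3, 1 to 3, 1 to 4 and 0 to 1. Apart from the 2-fold requirement, the share of all tested probes called under each alternative was not computed. These shifts are therefore not results about the clock genes in particular.

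The replicate block, a paired fit by replicate number, gave 4 with siRNA1, 2 with siRNA2 and 5 between the siRNAs. The share of all tested probes was not computed for it either. Whether the numbers pair the arrays cannot be told, because several same-numbered pairs also share a slide. Deviations of same-numbered arrays correlated from -0.18 upward, with a median of 0.30 over 10 pairs. The median was 0.30 over 13 pairs of the same slide and -0.10 over 30 pairs with different numbers.

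Of 630 alternative values for the 30 differences of the 10 genes, 567 kept their direction and side of the threshold, and 16 changed sign, in 7 differences of which 0 were called. Between the siRNAs, the sign changed for *Per3* (normexp -0.0079, slide block -0.056), *Cry2* (slide block 0.0070) and *Cry1* (normexp 0.0023, replicate block 0.10). Over the omissions of 1 array, differences that changed sign spanned -0.31 to 0.28 (*Per3*), -0.21 to 0.19 (*Cry1*), -0.25 to 0.037 (dimmer *Cry1* probe) and -0.42 to 0.042 (*Nr1d1*) between the siRNAs, -0.36 to 0.048 (*Per3*) with siRNA1, and -0.49 to 0.10 (*Per3*) and -0.18 to 0.012 (*Nr1d2*) with siRNA2. The causes were not tested. No scaling moved the median of all probes by over 0.1. Among the partner genes, the counts called with siRNA1 (8), with siRNA2 (5) and between the siRNAs (6) moved as well. They became 5, 3 and 5 with no filter on dim probes, and 6, 2 and 7 with median scaling. With the methods' unpaired test they were 5, 4 and 2. They were 11, 7 and 8 with the slide as a block, and 10, 7 and 9 with the replicate block. The share of all tested probes was not computed for these settings.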
